A study of Mus musculus with 2 samples.

Results

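The 40 genes described here encode the cyclins, the cyclin-dependent kinases (CDKs), the kinases and phosphatases that switch CDKs off and on, the CDK inhibitors, the retinoblastoma family of pocket proteins and the E2F transcription factors. They were chosen by name for their roles in the cell cycle, by a rule that uses no measured value but with earlier results of these data known, and all 40 were found among the 27179 genes of the count table. The cells came from ALL65, a T cell acute lymphoblastic leukaemia (T-ALL) that arose in a mouse of the genotype Vav-tTA;TRE-GFP-shIkaros, and was grown in recipient mice. The Vav promoter drives the tTA transactivator in blood cells, and tTA switches on a hairpin RNA that silences Ikaros, a DNA-binding regulator of lymphoid genes, together with green fluorescent protein (GFP). One group was GFPmid cells sorted from the spleens of mice given doxycycline (Dox) for 3 days, which stops the hairpin so that the cells' own Ikaros returns. The other was GFPhigh cells from the spleens of untreated mice, in which the hairpin is on. Both groups carry the same transgenes and come from 1 leukaemia, and their sort gates differ along with Dox. The strain, age and sex of the recipients were not given in the sources used here.

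Cells divide when D-type cyclins bind CDK4 and CDK6 and these kinases phosphorylate the pocket proteins, which then release the E2F factors. The E2Fs switch on genes of DNA synthesis, cyclin E with CDK2 carries the cell into S phase, and cyclins A and B with CDK1 carry it into mitosis. The INK4 proteins block CDK4 and CDK6, the CIP/KIP proteins act mainly on CDK2, and both classes hold cells in G1. In the T lineage, cyclin D3 and CDK6 are known from mice to serve the expansion of immature thymocytes and the growth of T-ALL.

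The Dox library held 14457475 counts, that is reads assigned to genes, and the untreated library 7477988. Levels are given as CPM, the counts scaled to a common library size after correction by the trimmed mean of M values, and levels of different genes are compared only as CPM per kilobase of the gene length in the table. Each group had 1 library, so no value has a replicate error, no test was run, and the bounds in parentheses are exact 95% intervals for counting error only. The hairpin's target Ikzf1 stood at 1455 CPM in the Dox library and 262 CPM in the untreated library. All 11 T cell markers were measured, with a summed level of 6110 CPM with Dox and 5351 CPM without. They did not move together. At least 1.5-fold higher with Dox were 4 of them, Cd8b1 with a log2 ratio of 1.27, Cd4 with 0.83, Cd8a with 0.80 and Cd247 with 0.78, while Cd3g stood at -0.28, Cd3d at -0.25 and Lck at -0.21. Over all 10113 genes that reach 5 CPM in either library, 6.28% were at least 1.5-fold higher.

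A mean level of at least 1 CPM was reached by 0 of 10 B cell markers, 3 of 12 myeloid markers, 2 of 8 NK cell markers and 5 of 10 erythroid markers. The summed level of the B cell list was 0.914 CPM with Dox and 0.526 CPM without, of the myeloid list 23.7 CPM with Dox and 20.1 CPM without, of the NK cell list 5.55 CPM with Dox and 1.97 CPM without, and of the erythroid list 10.5 CPM with Dox and 8.03 CPM without. The measured myeloid markers went both ways, with Lyz2 at a log2 ratio of -1.99 (24 counts with Dox and 55 without), Itgam at 0.79 and Cd68 at 0.88. The measured NK cell markers were both higher with Dox, Prf1 at 2.19 (35 counts with Dox and 3 without) and Nkg7 at 1.16 (41 counts with Dox and 9 without). Ms4a1 and Pax5 of B cells, Mpo, Elane and Ly6g of myeloid cells and Ncr1 and Klrk1 of NK cells had 0 counts in both libraries. The stromal and endothelial list reached 330 CPM with Dox and 361 CPM without, most of it from Col1a2 and Pecam1, while Cdh5, Kdr and Col3a1 had 0 counts in both. In that list Pdgfrb, at 10.5 CPM with Dox and 35.3 CPM without, had a log2 ratio of -1.72 (-2.04 to -1.45), beyond any of the 40 genes, Col1a2 one of -0.56 and Pecam1 one of 0.37. The part of these markers in the differences below was not tested.

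Only 1 of the 40 genes stood at least 2-fold apart, the CDK4/6 kinase gene Cdk6, which was 2.95-fold lower with Dox. The size rule asked for a ratio of 2-fold or more in genes that reach 5 CPM in either library. Of the 38 members past this minimum, 0 met it upward and 1 downward. Over all 10113 genes past the minimum, 2.21% were this much higher and 2.24% this much lower. At 1.5-fold, 5 members were higher (Ccne1, Cdkn2c, Cdkn2d, Cdkn3 and E2f2) and 1 was lower (Cdk6), against 6.28% and 6.18% of all genes past the minimum. Of these members, Cdkn3 reached 5 CPM only in the Dox library, where it is high. The members' share was near the background at 2-fold, and at 1.5-fold above it upward and below it downward, on counts too small to call the set particular. The 2 members under the minimum were Cdkn1a and Cdkn2b. In bulk RNA, a smaller number of cells in a phase of the cycle and less RNA of the gene per cell cannot be told apart.

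**Figure D1:**
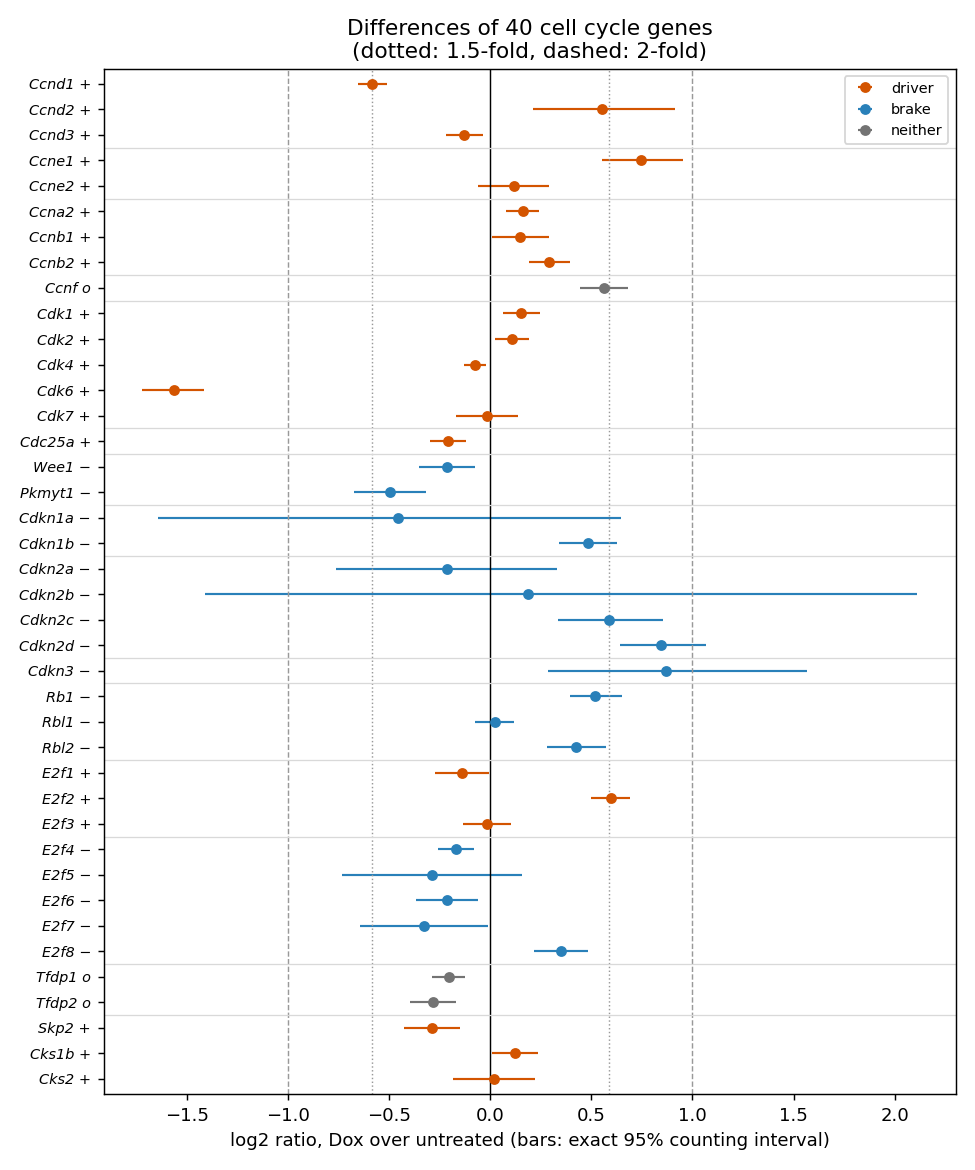
Log2 ratio of Dox over untreated for each of the 40 genes, in order of role, with the exact 95% counting interval as a bar (1 library a group). Orange points are drivers of the cycle, blue points brakes and grey points neither. Cdk6 lies alone beyond the dashed 2-fold line on the left, and the wide bars of Cdkn1a and Cdkn2b come from fewer than 20 counts in each library.

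The D-type cyclins and their kinases held the largest single difference. Cdk6 (chromosome 5 from 3341004 to 3531008, mm10) had 568 counts and 39.9 CPM in the Dox library, against 899 counts and 118 CPM in the untreated library. Its log2 ratio was -1.56 (-1.72 to -1.41). Its partner in function, Cdk4, was the most abundant of the 40 genes per length in both libraries, at 394 CPM per kilobase with Dox and 416 CPM per kilobase without. Cdk4 differed little, with 7556 and 4255 counts in the Dox and untreated libraries and a log2 ratio of -0.08 (-0.13 to -0.02). Cdk6 therefore made up 3.94% (3.62 to 4.27) of the summed Cdk4 and Cdk6 level per length in the Dox library and 10.3% (9.67 to 11.02) in the untreated library. The counted exons of Cdk6 span 2470 bases, while its exons in GENCODE M21 cover 13989 bases, so the count can cover only part of them. A stretch of 233 bases matches the pseudogene Gm16505 at 96.1% identity.

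Ccnd1, which encodes cyclin D1, a D-type cyclin that normal lymphocytes make little of, was abundant in this leukaemia and lower with Dox. It had 3551 counts and 249.6 CPM in the Dox library, against 2845 counts and 374 CPM in the untreated library, with a log2 ratio of -0.58 (-0.66 to -0.51). This places it just outside the 1.5-fold rule, and it passes under 3 of the alternative settings, where its ratio is slightly lower. Ccnd3 differed less, at 183 CPM with Dox and 199.9 CPM without, a log2 ratio of -0.13 (-0.22 to -0.04). Ccnd2, which encodes the remaining D-type cyclin and is usually prominent in T cells, was minor here, at 18.2 CPM with Dox and 12.4 CPM without, a log2 ratio of 0.55 (0.21 to 0.91). Per length, Ccnd3 held the largest share of the D-type cyclins with Dox, 54.0% (52.7 to 55.2), where it held 46.7% (45.2 to 48.3) without. Ccnd1 held 43.9% (42.7 to 45.1) with Dox and 52.1% (50.6 to 53.7) without, so the order per length differed between the libraries. In counts, not divided by length, Ccnd1 was the largest in both, with 55.4% with Dox and 63.8% without. The counted exons of Ccnd3 span 2261 bases, while its exons in GENCODE M21 cover 8775 bases, so the order rests on the length used. The summed level of the 3 D-type cyclin genes was 149.7 CPM per kilobase with Dox and 189 CPM per kilobase without.

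The exons of Ccnd1 and Cdk4 overlap genes of the opposite strand, and the strand setting was not given in the sources used here. LTO1, which shares 1100 exon bases with Ccnd1, stood at 22.1 CPM with Dox and 19.3 CPM without. Tspan31, which shares 641 exon bases with Cdk4, stood at 45.1 CPM with Dox and 66.6 CPM without. Ccne2 likewise shares 609 exon bases with Ints8, at 111 CPM with Dox and 86.1 CPM without, and Ccna2 shares 510 with Exosc9, at 44.7 CPM with Dox and 46.4 CPM without. The part of their reads in these values was not tested.

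**Figure D2:**
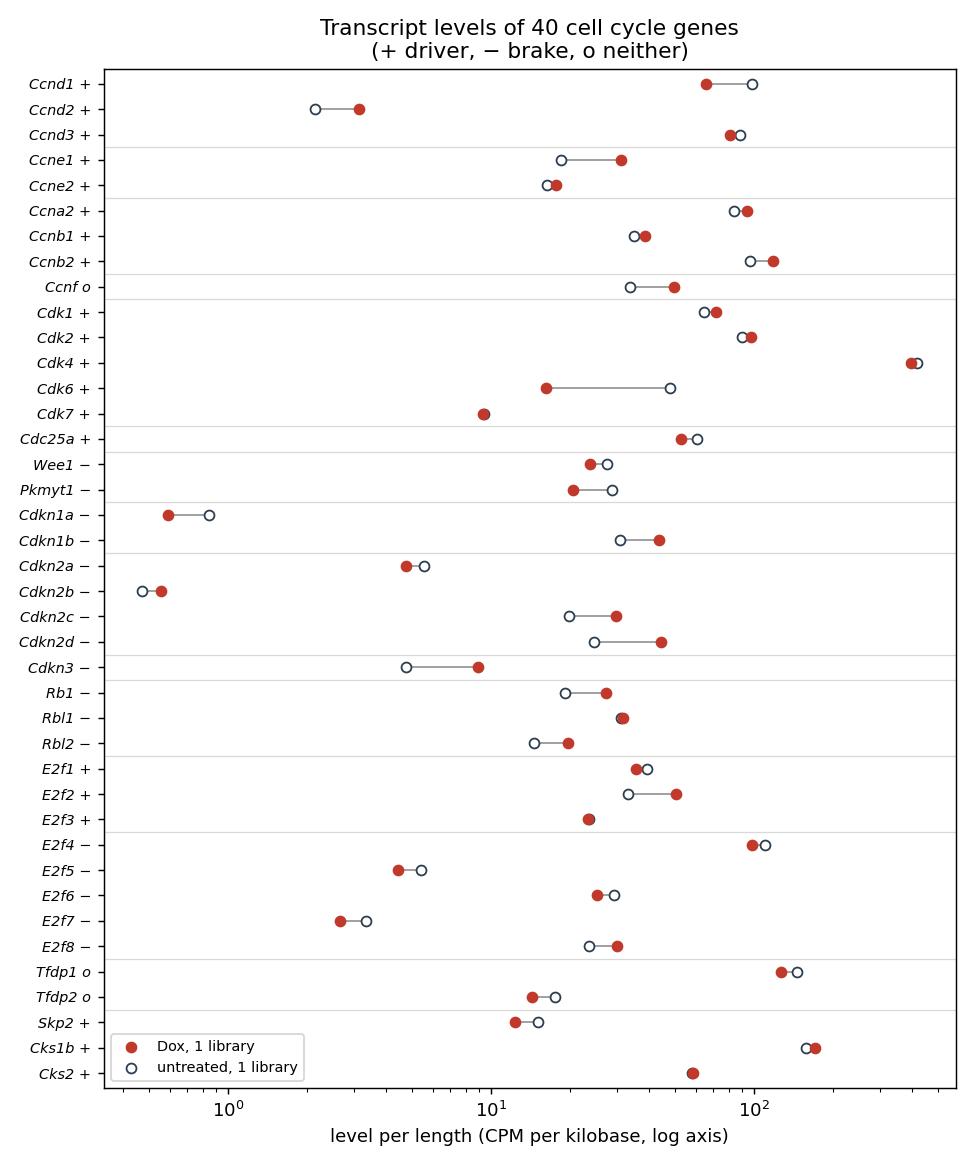
Level of each of the 40 genes in CPM per kilobase of gene length on a log axis, with the Dox library as filled red points and the untreated library as open points (1 library each). Cdk4 is the highest gene in both libraries, Cdkn1a and Cdkn2b the lowest, and the widest gap between the libraries is that of Cdk6.

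Among the inhibitors of CDK4 and CDK6, the INK4 genes Cdkn2d and Cdkn2c stood higher with Dox while the tumour suppressor locus Cdkn2a did not. Cdkn2d, which encodes p19INK4d, had 803 counts and 56.4 CPM in the Dox library, against 238 counts and 31.3 CPM in the untreated library. Its log2 ratio was 0.85 (0.64 to 1.06), and it was the only member whose interval lay wholly above 1.5-fold. Cdkn2c, which encodes p18INK4c, an inhibitor known to restrain T cell division in mice, had 468 counts and 32.9 CPM with Dox, against 166 counts and 21.8 CPM without. Its log2 ratio of 0.59 (0.33 to 0.86) places it just inside the 1.5-fold rule. Cdkn2a encodes both p16INK4a and p19ARF, whose transcripts a gene count cannot separate, and it stood low at 5.41 CPM with Dox and 6.32 CPM without, with a log2 ratio of -0.22 (-0.76 to 0.33). Its neighbour on chromosome 4, Cdkn2b, had 11 counts with Dox and 5 counts without, too few for a direction. Together the INK4 genes reached 79.5 CPM per kilobase with Dox and 50.4 CPM per kilobase without. The summed level of the D-type cyclins was 1.88 times that of the INK4 genes in the Dox library and 3.75 times in the untreated library. For Cdk4 and Cdk6 together the multiple was 5.16 with Dox and 9.19 without. These ratios describe transcripts, not proteins.

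Of the CIP/KIP inhibitors, Cdkn1b was the expressed one. It encodes p27, which holds CDK2 inactive in resting cells, and had 1483 counts and 104 CPM in the Dox library, against 567 counts and 74.6 CPM in the untreated library. Its log2 ratio was 0.48 (0.34 to 0.62), short of 1.5-fold. Cdkn1a, the p53 target that encodes p21, had 17 counts with Dox and 13 counts without, at 1.195 and 1.71 CPM. Skp2, the F-box protein that marks p27 for destruction, stood at 76.3 CPM with Dox and 93.3 CPM without, a log2 ratio of -0.29 (-0.43 to -0.15). Cks1b, the small cofactor that Skp2 needs to recognise p27, stood at 129 CPM with Dox and 119 CPM without, and its relative Cks2 at 40.8 CPM with Dox and 40.3 CPM without. Cdkn3, a phosphatase that acts on CDK2, had the highest ratio of the 40 genes, 0.87 (0.28 to 1.56), on 98 counts with Dox and 28 counts without. It stood at 6.89 CPM with Dox and 3.68 CPM without, so it passed the 5 CPM minimum only through the Dox library.

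The pocket protein genes Rb1 and Rbl2 were higher with Dox by less than 1.5-fold, and Rbl1 was not told apart from 0 by its interval. Rb1 had 1805 counts and 127 CPM in the Dox library, against 672 counts and 88.4 CPM in the untreated library, a log2 ratio of 0.52 (0.39 to 0.65). Rbl2, which encodes p130, the pocket protein that prevails in resting cells, stood at 95.6 CPM with Dox and 71.2 CPM without, a log2 ratio of 0.42 (0.28 to 0.57). Rbl1, which encodes p107, the pocket protein of dividing cells, stood at 172 CPM with Dox and 169 CPM without, a log2 ratio of 0.02 (-0.08 to 0.12). Rbl1 remained the most abundant of these genes per length in both libraries, with 40.3% (39.0 to 41.6) of their summed level with Dox and 48.1% (46.2 to 50.1) without. Rb1 shares exon bases with 2 genes of the opposite strand, Lpar6, at 72.8 CPM with Dox and 41.8 CPM without, and Rcbtb2, at 213 CPM with Dox and 161 CPM without. The part of their reads in the Rb1 value was not tested.

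The E2F genes did not move as a block. Among the activators, which switch on genes of S phase, E2f2 had 3392 counts and 238 CPM in the Dox library, against 1199 counts and 158 CPM in the untreated library, and its log2 ratio of 0.60 (0.50 to 0.69) was just inside 1.5-fold. E2f1 stood at 87.5 CPM with Dox and 96.6 CPM without, a log2 ratio of -0.14 (-0.27 to -0.01), and E2f3 at 119 CPM with Dox and 120.1 CPM without. With Dox, E2f2 was the most abundant activator per length, at 46.1% (44.8 to 47.3) of their sum, against 34.6% (33.0 to 36.4) in the untreated library. E2f1 held 32.6% (31.2 to 34.0) with Dox and 40.8% (38.8 to 42.9) without. In counts, not divided by length, E2f2 was the largest activator in both libraries, with 53.6% with Dox and 42.1% without. Of the 5 repressor genes, 4 had ratios under 0, between -0.33 for E2f7 and -0.17 for E2f4, the pocket protein partner that is the most abundant E2F here at 98.1 CPM per kilobase with Dox and 110.4 CPM per kilobase without. E2f8, which with E2f7 forms the atypical pair that represses E2F targets without a DP partner, was the exception at 0.35 (0.22 to 0.48). Activators made up 40.5% (39.6 to 41.3) of the summed E2F level per length with Dox and 35.8% (34.7 to 37.0) without. Tfdp1 and Tfdp2, whose DP proteins pair with the E2Fs, had log2 ratios of -0.21 (-0.29 to -0.12) and -0.28 (-0.40 to -0.17).

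**Figure D3:**
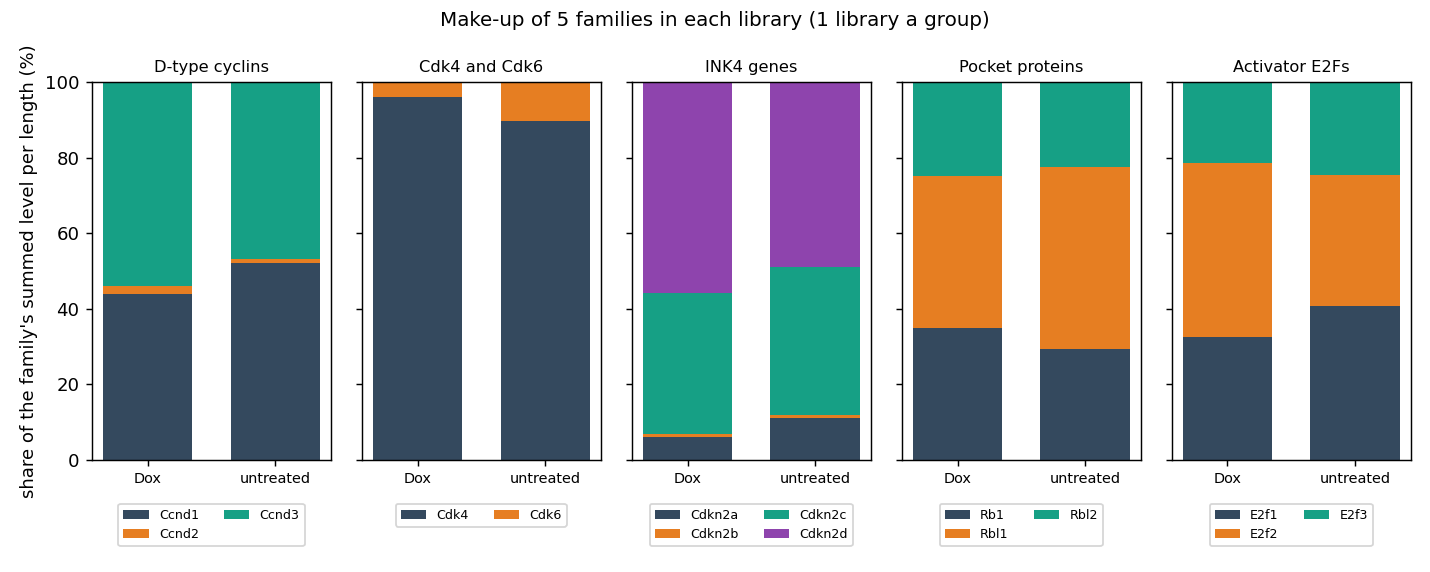
Share of each gene in the summed level per length of its family, in percent, with the Dox library as the left bar and the untreated library as the right bar of each panel (1 library each). The Cdk6 part is 3.94% with Dox and 10.3% without, and the E2f2 part is wider with Dox. Per length, Ccnd3 is the larger D-type cyclin with Dox and Ccnd1 without, an order that counts not divided by length do not show.

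At the step into S phase, Ccne1 and Ccne2, which encode the cyclins E that activate CDK2, differed from each other. Ccne1 had 866 counts and 60.9 CPM in the Dox library, against 275 counts and 36.2 CPM in the untreated library, 1.68-fold higher, and its log2 ratio was 0.75 (0.55 to 0.95). Ccne2 stood at 57.0 CPM with Dox and 52.6 CPM without, a log2 ratio of 0.11 (-0.06 to 0.29). Per length, Ccne1 made up 63.7% (61.4 to 65.9) of the cyclin E level with Dox and 53.1% (49.1 to 56.9) without. In counts, not divided by length, it made up 51.6% with Dox and 40.7% without. Cdk2 itself stood at 237 CPM with Dox and 219.7 CPM without, and Cdk7, the kinase that activates other CDKs, at 70.9 CPM with Dox and 71.7 CPM without. Cdc25a, the phosphatase that removes inhibitory phosphates from CDKs, was slightly lower with Dox, at 191 CPM, against 221 CPM in the untreated library. The kinases that place those phosphates were lower as well, Wee1 with a log2 ratio of -0.21 (-0.35 to -0.08) and Pkmyt1 with one of -0.49 (-0.68 to -0.32). Pkmyt1 had 593 counts and 41.7 CPM with Dox, against 447 counts and 58.8 CPM without, the lowest ratio of any brake.

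The cyclins of S phase, G2 and mitosis and their kinase Cdk1 were all slightly higher with Dox. Ccna2, which encodes cyclin A2, stood at 264 CPM in the Dox library and 236 CPM in the untreated library, a log2 ratio of 0.16 (0.08 to 0.24). The cyclin B gene Ccnb1 stood at 89.3 CPM with Dox and 80.7 CPM without, a ratio of 0.15 (0.01 to 0.29). Its relative Ccnb2 stood at 183 CPM with Dox and 149 CPM without, a ratio of 0.29 (0.19 to 0.39). Cdk1 stood at 205 CPM with Dox and 184 CPM without, a log2 ratio of 0.15 (0.06 to 0.25). Ccnf was further apart, at 154 CPM with Dox and 104 CPM without, with a log2 ratio of 0.56 (0.44 to 0.68), just short of 1.5-fold. Its product, cyclin F, activates no CDK but marks proteins for destruction in G2. Ccnb1 is uncertain because its longest transcript aligns with the processed pseudogene Ccnb1-ps at 99.2% identity over 1287 bases. It also matches the pseudogenes Gm12856 at 98.1% over 1294 bases, Gm8416 at 97.3% over 1290 and Gm7483 at 96.6% over 383. How reads with several matches were counted was not given in the sources used here. Likewise Cks2 matches 3 processed pseudogenes and Tfdp1 and Ccnd3 match 1 each.

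Many genes of G2 and mitosis carry in their promoters the cell cycle genes homology region (CHR), the letters TTTGAA, which MuvB complexes bind, and CCAAT boxes, which NF-Y binds. The 200 bases before the RefSeq start (GRCm38.p6) of the 4 members of this phase with a listed promoter are printed because these genes stood higher together. Capitals mark CHR letters, CCAAT boxes, the E2F letters TTTCGCGC, TTTGGCGC and TTTCCCGC, and the Ikaros core TGGGAA, each on either strand.
Cdk1 (chr10:69352913-69353112, minus strand): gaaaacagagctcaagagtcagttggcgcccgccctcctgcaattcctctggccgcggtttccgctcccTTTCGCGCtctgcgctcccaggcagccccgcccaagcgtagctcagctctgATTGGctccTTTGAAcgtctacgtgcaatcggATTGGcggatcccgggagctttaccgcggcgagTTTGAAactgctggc
Ccnb1 (chr13:100786487-100786686, minus strand): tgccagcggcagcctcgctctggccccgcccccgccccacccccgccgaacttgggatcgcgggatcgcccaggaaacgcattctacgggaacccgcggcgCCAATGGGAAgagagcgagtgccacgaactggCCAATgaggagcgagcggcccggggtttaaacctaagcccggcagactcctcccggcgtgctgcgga
Ccnb2 (chr9:70421555-70421754, minus strand): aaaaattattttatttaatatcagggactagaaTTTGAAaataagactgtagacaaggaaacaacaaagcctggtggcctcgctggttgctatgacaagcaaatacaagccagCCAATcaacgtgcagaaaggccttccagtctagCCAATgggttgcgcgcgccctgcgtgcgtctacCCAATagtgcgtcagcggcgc
Ccnf (chr17:24251410-24251609, minus strand): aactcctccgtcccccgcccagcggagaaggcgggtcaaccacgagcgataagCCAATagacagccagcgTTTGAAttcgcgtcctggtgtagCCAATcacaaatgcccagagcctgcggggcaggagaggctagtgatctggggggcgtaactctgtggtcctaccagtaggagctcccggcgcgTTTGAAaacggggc

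The Cdk1 window held an E2F match that begins at base -131 from the start, CHR letters at -71 and -15 and CCAAT boxes on both sides of the first CHR. Ccnf had CHR letters at -130 and -14 with CCAAT boxes at -147 and -107. Ccnb2 had 3 CCAAT boxes and CHR letters at -167 and, beyond the printed stretch, at base 5 after the start. Ccnb1 had 2 CCAAT boxes and no CHR letters in its window, and its match to the Ikaros core overlaps a CCAAT box by shared letters. Over all 32851 promoter windows of 300 bases, from 250 before to 50 after the start, 17.9% held CHR letters, 37.4% a CCAAT box, 1.84% an E2F match and 25.6% the Ikaros core. Of the 40 genes, 31 had a window, and among their 40 windows 11 held CHR letters (27.5%), 20 a CCAAT box, 10 an E2F match and 10 the Ikaros core. Windows of the same gene can overlap, and both Tfdp1 windows hold the same E2F match, which is counted in each. The genes with an E2F match were Cdk1, Cdk2, Cdc25a, Cdkn2a, Rbl1, E2f2, E2f3, E2f7 and Tfdp1. Their log2 ratios ran from -0.33 to 0.60, so the match went with no common direction. The genes with CHR letters were Cdk1, Ccnb2, Ccnf, Cdkn2b, Cdkn3, Rbl2, E2f2, E2f3, E2f8, Skp2 and Cks1b. Their log2 ratios ran from -0.29 for Skp2 to 0.87 for Cdkn3, with E2f3 also below 0. A link between CHR letters and direction was not tested. The Cdk6, Ccne1 and E2f1 windows held none of these letters, which says nothing of the factors' binding elsewhere or at variant letters. The Cdk6 window, from 3343643 to 3343942, lies inside the gene, whose span begins at 3341004 on the plus strand. The E2f1 window, from 154569377 to 154569676, lies inside its gene, which on the minus strand begins at 154569892. Other starts of these genes were not searched. The promoters of Ccna2, Ccnd1, Ccnd2, Ccne2, E2f4, E2f5, Pkmyt1, Rb1 and Wee1 were not analysed here.

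Genes outside the 40 that the same factors control were read from lists. Of 22 targets of FoxM1 and the CHR, genes of mitosis, 22 of the 22 measured had a ratio above 0, where 51.2% of all 11498 genes with a mean of at least 1 CPM did. Their median log2 ratio was 0.25, against 0.0080 over all these genes. At least 1.5-fold higher was 1 gene, and 0 were lower by as much, against 6.28% and 6.18% of all genes past 5 CPM. That gene was Cdc25b, the phosphatase that starts mitosis, at 211 CPM with Dox and 126 CPM without, a log2 ratio of 0.74 (0.63 to 0.84). Next came Top2a, which untangles DNA before mitosis, at 0.44 (0.41 to 0.47), Ttk at 0.38 and Tpx2 at 0.36. Lowest was Cdc25c at 0.0447 (-0.187 to 0.280), an interval that spans 0. Total counts shifted all ratios by a median of -0.0464, so the count of 22 above 0 depends on the scaling. E2F targets of DNA synthesis lay mostly below 0, with 7 of 30 measured genes above 0 and a median of -0.09. The lowest were Tk1, a thymidine kinase, at 66.9 CPM with Dox and 101 CPM without, a log2 ratio of -0.60 (-0.74 to -0.46), Gins2 at -0.52, the licensing factor gene Cdt1 at -0.48 (-0.57 to -0.40) and Orc1 at -0.34. Tk1 was the only E2F target past 1.5-fold.

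Of the CDK regulators outside the 40, 12 of 15 were measured, with a median of -0.01. Of the 11 that reach 5 CPM in either library, 3 were at least 1.5-fold higher and 0 lower. Over all genes past this minimum, 6.28% were this much higher and 6.18% this much lower. The 3 higher genes were Cdc25b, Ccng2, which encodes an atypical cyclin of arrested cells, at 217 CPM with Dox and 121 CPM without, a log2 ratio of 0.85 (0.74 to 0.96), and Cdk2ap2 at 0.73 (0.54 to 0.92). Ccng1 stood at 0.34. The list of cell cycle ubiquitin ligases also takes in regulators and a deubiquitinase. Among its 19 measured genes 14 lay above 0 and the median was 0.11, and 0 of the 17 past 5 CPM passed 1.5-fold. Furthest from 0 were Dtl, the substrate receptor that removes Cdt1, at -0.54 (-0.62 to -0.46), and on the other side Anapc11, a subunit of the anaphase-promoting complex, at 0.48 (0.27 to 0.71), its activator Fzr1 at 0.32 and its E2 enzyme Ube2c at 0.31. The 8 genes of the DREAM, MuvB and FoxM1 list had a median of 0.15, with 5 above 0 and 0 past 1.5-fold. Mybl1 stood at 0.42 (-0.15 to 1.05), Lin37 at 0.36 (0.02 to 0.72), Mybl2, an E2F target, at -0.28 (-0.42 to -0.14) and Rbbp4 at 0.22 (0.18 to 0.27).

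**Figure D4:**
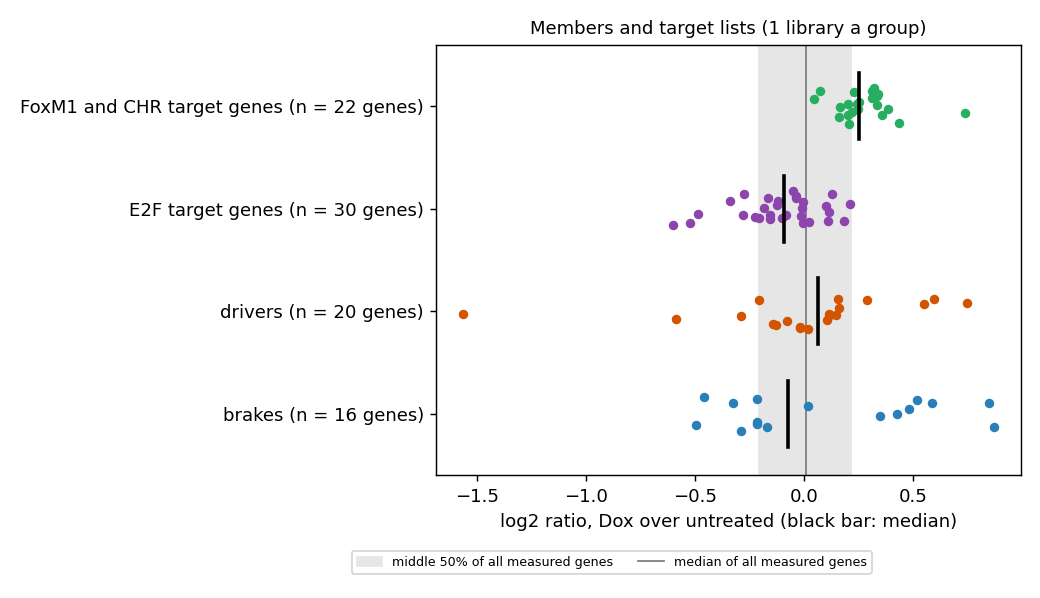
Log2 ratio of Dox over untreated for each gene of 2 target lists and for the measured drivers and brakes among the 40 genes (1 library a group), with a black bar at each median. The grey band holds the middle 50% of all measured genes. All 22 FoxM1 and CHR targets lie above 0, the lowest of them, Cdc25c, with a counting interval that spans 0. Most E2F targets lie below 0, and the drivers and brakes spread to both sides.

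Set against each other, drivers and brakes both had medians near that of all genes, and each side held members well above and below it. The 20 drivers, namely the cyclins other than Ccnf, the CDKs, Cdc25a, the activator E2Fs, Skp2 and the Cks genes, had a median log2 ratio of 0.06, from -1.56 for Cdk6 to 0.75 for Ccne1, with 11 above 0. Of the 17 brakes, 16 were measured, with a median of -0.07, from -0.49 for Pkmyt1 to 0.87 for Cdkn3, and 8 lay above 0 and 8 below. With a minimum of 20 CPM the median of the brakes was 0.35, on the other side of 0. Among the brakes with intervals that leave out 0, only the repressor E2Fs held genes on both sides. Cdkn2c, Cdkn2d, Cdkn1b, Cdkn3, Rb1, Rbl2 and E2f8 stood higher with Dox, and Wee1, Pkmyt1, E2f4, E2f6 and E2f7 lower. Summed per length, drivers reached 1442 CPM per kilobase with Dox and 1455 CPM per kilobase without, and brakes 416 with Dox and 381 without. The drivers' sum was 3.47 times that of the brakes in the Dox library and 3.82 times in the untreated library. Cdk4 alone makes up more of the drivers' sum than any other gene.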

How the data were processed

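RNA sequencing libraries of sorted leukaemia cells were analysed, 1 from mice given Dox and 1 from untreated mice. The authors' deposited tables hold raw counts per gene, with Entrez Gene numbers and gene lengths in bases. Per the submitters' processing notes, CASAVA 1.8.2 and featureCounts were used with build mm10, and the aligner, annotation, strand setting and handling of shared reads were not given in the sources used here. While the design text names 3 mice in each group and 2 runs for every RNA, 1 column per group was deposited. The series table and the separate library files differed in 0 values.

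Symbols and positions came from RefSeq (GRCm38.p6, the assembly behind mm10), which named 25275 genes. Exon overlaps, exon lengths and near-identical transcripts (at least 95% identity over 200 bases, blastn) came from GENCODE M21. Counts were scaled by TMM in edgeR 4.0.16 (R 4.3.3). Log2 ratios of Dox over untreated used a prior count of 2, and folds are these ratios on the linear scale. Intervals are Clopper-Pearson bounds at 95%, without the prior count. For a share within a family of more than 2 genes, the mix of the other genes was held fixed. The size rule took ratios past 2-fold or 1.5-fold where the higher library had 5 CPM or more, and medians took genes with a mean of at least 1 CPM. A count of 0 allows up to 0.211 CPM with Dox and 0.395 CPM without. The median half-width of the interval over the members past the minimum was 0.13 on the log2 scale. With 1 library per group there is no residual spread, so no test was run. The steps were run on simulated counts with counting error only, which leave out any spread between mice, sorts or libraries.

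The members, their roles and the 11 gene lists (156 entries, 155 found) were chosen with earlier results of these data known. All 40 members are named, and so are up to 4 genes of each list, those furthest from a ratio of 0 with 5 CPM or more. LTO1, Tspan31, Lpar6, Rcbtb2, Ints8, Exosc9 and the markers at 0 counts were named for the reason given beside them. Cd3d, Cd3g, Lck, Prf1, Nkg7 and Cdc25c were named after their values were seen. Alternatives were DESeq2 1.42.0 size factors, total counts, other prior counts and CPM minimums, the interval bound nearest to 0, shares without length, and, chosen after seeing the data, removal of the trend with gene length. The other steps ran in Python 3.11.15 (scipy 1.17.1, pandas 2.3.3, numpy 2.4.6; figures, matplotlib 3.10.9).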

Additional observations from a re-analysis of the deposited data

How the results depend on the processing

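The log2 ratios of the 40 genes gave 200 values under other scalings, prior counts and length correction, and 0 of them moved by as much as the counting interval reaches to either side. Total counts lowered all ratios by about the same amount, with a median shift of -0.05. The narrowest member interval, that of Cdk4, reaches further to either side of its ratio (-0.076, with bounds of -0.130 and -0.021). A shift of that size could therefore not count as a move. The 1.5-fold counts turn on genes close to that line. With total counts 3 members were higher, since Cdkn2c and E2f2 dropped out, and with the interval bound nearest to 0 only 1 was higher, Cdkn2d. With a minimum of 20 CPM 4 were higher, since Cdkn3 fell below it. With total counts, DESeq2 size factors or the length trend removed, 2 were lower, Cdk6 and Ccnd1. The 2-fold counts of 0 higher and 1 lower were the same under all 8 alternatives. With a minimum of 20 CPM the median of the brakes was 0.35 and that of the D-type cyclins -0.36, as fewer genes remained, so the direction of the brakes' median depends on their low genes. With the same minimum the stromal median was -0.56. With no filter on low counts the myeloid, NK and stromal medians were 0. Without division by length the Cdk6 share of Cdk4 and Cdk6 differed by -10.5 percentage points, against -6.39 per length. No paired analysis was possible because each group has 1 library. No replicate could be left out for the same reason, and depth limits Cdkn1a, Cdkn2a, Cdkn2b and E2f5, whose intervals span 0.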
